A study of Mus musculus with 7 samples.

Results

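Peroxisomes are small organelles that oxidise very long chain and branched fatty acids, shorten the side chain of bile acid precursors, break down purines and glyoxylate precursors, and start the synthesis of ether lipids. Proteins called peroxins build them: some insert membrane proteins, some carry enzymes with a targeting signal across the membrane, and some help the organelle to divide. Hepatocytes are rich in peroxisomes, and in rodents the fatty acid receptor PPAR-alpha raises the transcription of many of their genes. The 37 genes described here were chosen by symbol out of the 37620 Ensembl genes of the deposited count table: 13 peroxins and 24 enzymes and carriers. All 37 were found in the table, and 35 passed the filter on low counts. The 2 that did not, Hao2 and Dao, are at the end of the account of the enzymes.

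All 7 RNA libraries came from homogenates of flash-frozen whole liver of C57BL/6 mice kept on Western diet for 30 weeks. By their labels, 4 belong to the H-TBA group and 3 to the L-TBA group, where TBA stands for total bile acids, high or low. The labels name no genetic change or other treatment that sets the groups apart, and they give neither age nor sex. Whether the libraries stand for different mice is not stated, and p-values therefore cover the spread among these libraries, which may be technical.

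Libraries held between 9996990 and 12152613 counts, and a member that passed the filter had at least 33 counts in every library. Levels below are in CPM, counts scaled to library size with the TMM method. A fold change compares H-TBA with L-TBA on the log2 scale and stands with its standard error, and a gene is called when the adjusted p of edgeR's quasi-likelihood test over all 15249 tested genes is below 0.05. Of all tested genes 10.7% were called lower in H-TBA and 13.1% higher. Of 10 hepatocyte markers 2 were called lower and 2 higher. Their summed level was between 62905 and 70237 CPM in H-TBA and between 68548 and 76147 CPM in L-TBA. All 8 bile duct cell markers were called higher, with a summed level of 952 to 1842 CPM in H-TBA against 456 to 719 CPM in L-TBA, and none of the 8 was at 0. The H-TBA 1 library had the H-TBA sum nearest to L-TBA for these duct markers, and also for the 8 pericentral hepatocyte markers, of which 5 were called lower and 0 higher (3503 to 6278 CPM against 9921 to 11329 CPM). Of 8 periportal markers 6 were called higher and 0 lower (7389 to 9769 CPM against 3759 to 5267.5 CPM). For the periportal markers H-TBA 1 had the H-TBA sum farthest from L-TBA, at 9769 CPM. In whole liver, fewer cells of a type and less RNA per cell cannot be told apart, and the part of these cell markers in the results was not tested.

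Peroxisomal transcripts were mostly at lower levels in H-TBA. Of the 35 tested members 12 were called lower, which is 34.3% against 10.7% of all tested genes. Only 3 were called higher, Ehhadh, Nudt19 and Far1, which is 8.57% against 13.1% of all tested genes. In either direction 42.9% of the members were called, against 23.9% of all genes. The H-TBA libraries all lay below the L-TBA libraries for 13 members and all above for 3, while 16.3% and 17.2% of all tested genes separated in these directions and 33.5% in either. The median log2 fold change of the 35 members was -0.28, against 0.00 for all tested genes.

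Of 13 peroxins 2 were called lower, which is 15.4% and near the 10.7% of all tested genes, and 0 higher. Of 22 tested enzymes and carriers 10 were called lower, which is 45.5%. The 3 called higher were 13.6%, near the 13.1% of all tested genes. The gap in lower calls depended on the setting: limma-voom called 8 peroxins and 14 enzymes lower, and so did the test without H-TBA 1. The median log2 fold change was -0.25 for the peroxins and -0.32 for the enzymes, and 11 of 13 and 16 of 22 were negative. The difference between the lists was not tested. Summed over the 13 peroxins, the level was between 785 and 962 CPM in H-TBA and between 1045 and 1118 CPM in L-TBA, with no overlap. Without Pex11a the sums were between 715 and 848 CPM and between 834 and 900.3 CPM, and overlapped. The sums over the 24 enzymes overlapped as well, at 8693 to 10865 CPM against 10499.9 to 11754.5 CPM.

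For most called members H-TBA 1 stood nearer to L-TBA than the other H-TBA libraries. It was the highest H-TBA library for 10 of the 12 members called lower and the lowest for 3 of the 3 called higher. Among all called genes the same held for 59.9% of the lower and 66.6% of the higher ones. Without H-TBA 1, 22 members were called lower and 4 higher. Without L-TBA 1, 4 were called lower and 1 higher. With the replicate number as a block, 4 were called lower (Pex11a, Nudt7, Acot3 and Acot4) and 1 higher (Nudt19). All other called members lost their calls in that setting, which is not listed for each gene below. When libraries were scaled by their totals, which moved the median of all genes from 0.00 to 0.16, 6 members were called lower and 6 higher.

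**Figure D1:**
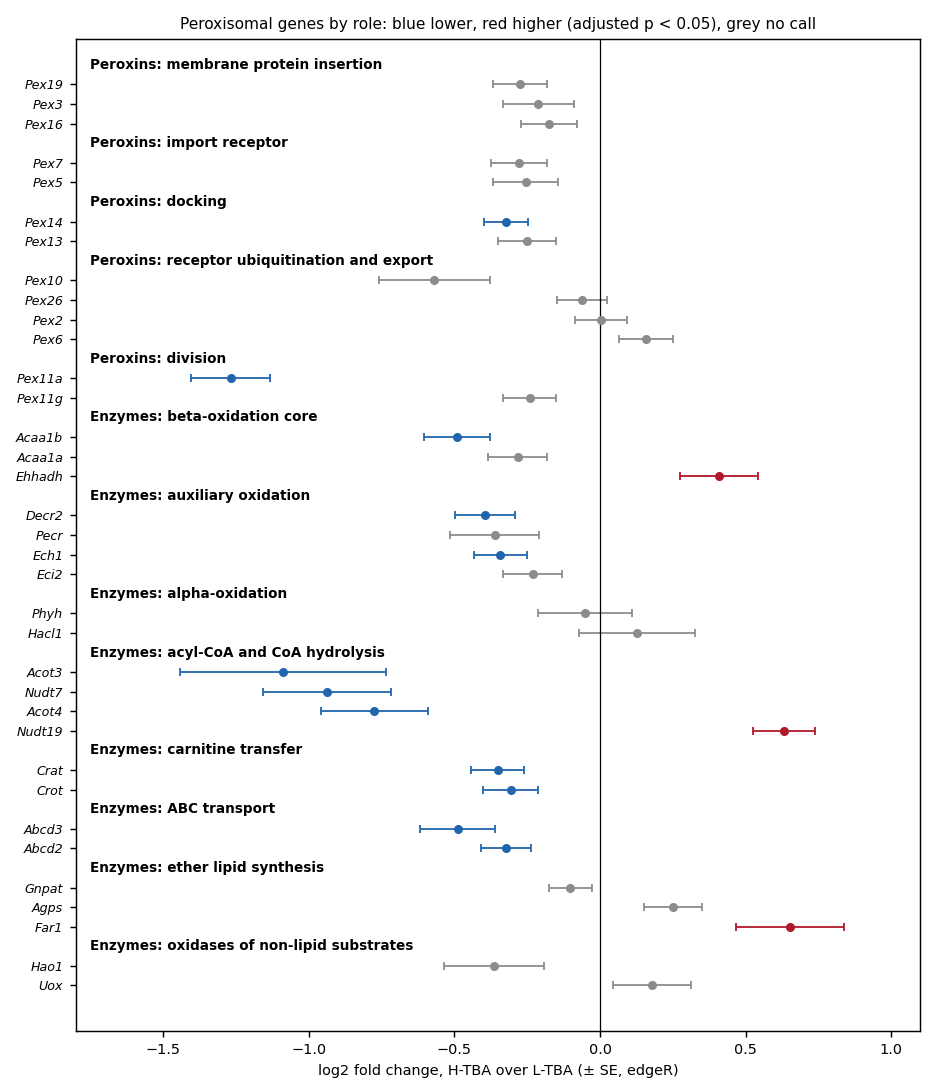
Fold change of the 35 tested genes by role, on a log2 axis, H-TBA (4 libraries) over L-TBA (3 libraries). Points are edgeR estimates and bars their standard errors; blue genes were called lower, red genes higher and grey genes neither. Pex11a lies farthest to the left at -1.27, and Ehhadh, Nudt19 and Far1 are the called genes right of 0.

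Pex11a showed the largest difference among the members. It encodes a membrane protein that elongates peroxisomes before division, and it is a known target of PPAR-alpha. The L-TBA libraries held Pex11a (ENSMUSG00000030545) at 218, 211 and 217 CPM, and the H-TBA libraries at 114, 82.1, 70.0 and 91.4 CPM. Every H-TBA library lay below every L-TBA library, with H-TBA 1 the highest of its group. Pex11a fell by 1.27 ± 0.14 on the log2 scale (adjusted p = 0.000208), from 215 ± 3.42 CPM (SD, n = 3) to 89.4 ± 18.5 CPM (SD, n = 4). The call held in all 16 alternative analyses, with adjusted p-values of at most 0.00485. Its relative Pex11g did not pass at -0.24 ± 0.09 (adjusted p = 0.0807, and 0.0173 without H-TBA 1). Of the 50-base stretches of the Pex11g transcripts, 39.2% also occur in the overlapping transcript Gm44775, on either strand.

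Pex14 was the other peroxin called lower. It forms the docking site for the import receptors on the membrane, together with Pex13. Pex14 (ENSMUSG00000028975) was at 70.5, 69.7 and 70.1 CPM in L-TBA and at 60.7, 54.0, 55.9 and 53.6 CPM in H-TBA, so the groups did not overlap. It fell by 0.32 ± 0.07 on the log2 scale (adjusted p = 0.00944). The call was lost when libraries were scaled by their totals (adjusted p = 0.119) and with the replicate block (adjusted p = 0.0768). The transcript Gm17029 shares 25.2% of the 50-base stretches of Pex14, on either strand. Pex13, which spans the membrane, did not pass at -0.25 ± 0.10 (adjusted p = 0.0935).

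The import receptors did not pass the test. Pex5 carries enzymes with the common C-terminal signal, and Pex7 those with the rarer N-terminal signal. Pex5 was at 152, 143 and 155 CPM in L-TBA and at 151, 115, 109 and 128 CPM in H-TBA, where H-TBA 1 lay among the L-TBA libraries (log2 fold change -0.26 ± 0.11, adjusted p = 0.123). Pex7 was at -0.28 ± 0.10 (adjusted p = 0.0561), with groups that did not overlap. Pex19, Pex3 and Pex16, which insert membrane proteins, were between -0.28 and -0.17, and Pex19 came closest to the threshold (adjusted p = 0.054). Without H-TBA 1, Pex5, Pex7, Pex13 and Pex19 were called lower (adjusted p = 0.011, 0.02, 0.0231 and 0.0113).

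None of the 4 genes that recycle the receptors passed. Pex2 and Pex10 are ubiquitin ligases that mark Pex5, and Pex6 is a motor that, held to the membrane by Pex26, pulls it out again. Pex2 was at 0.00 ± 0.09, Pex26 at -0.06 ± 0.09 and Pex6 at 0.16 ± 0.09 (adjusted p = 0.979, 0.645 and 0.243). With library totals, Pex6 was called higher (adjusted p = 0.0378). Pex10, the least abundant peroxin per length at 1.39 CPM per kb, was at 5.63 ± 0.524 CPM in L-TBA and 3.81 ± 0.749 CPM in H-TBA (log2 fold change -0.57 ± 0.19, adjusted p = 0.051, and 0.0138 without H-TBA 1). Its groups did not overlap.

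**Figure D2:**
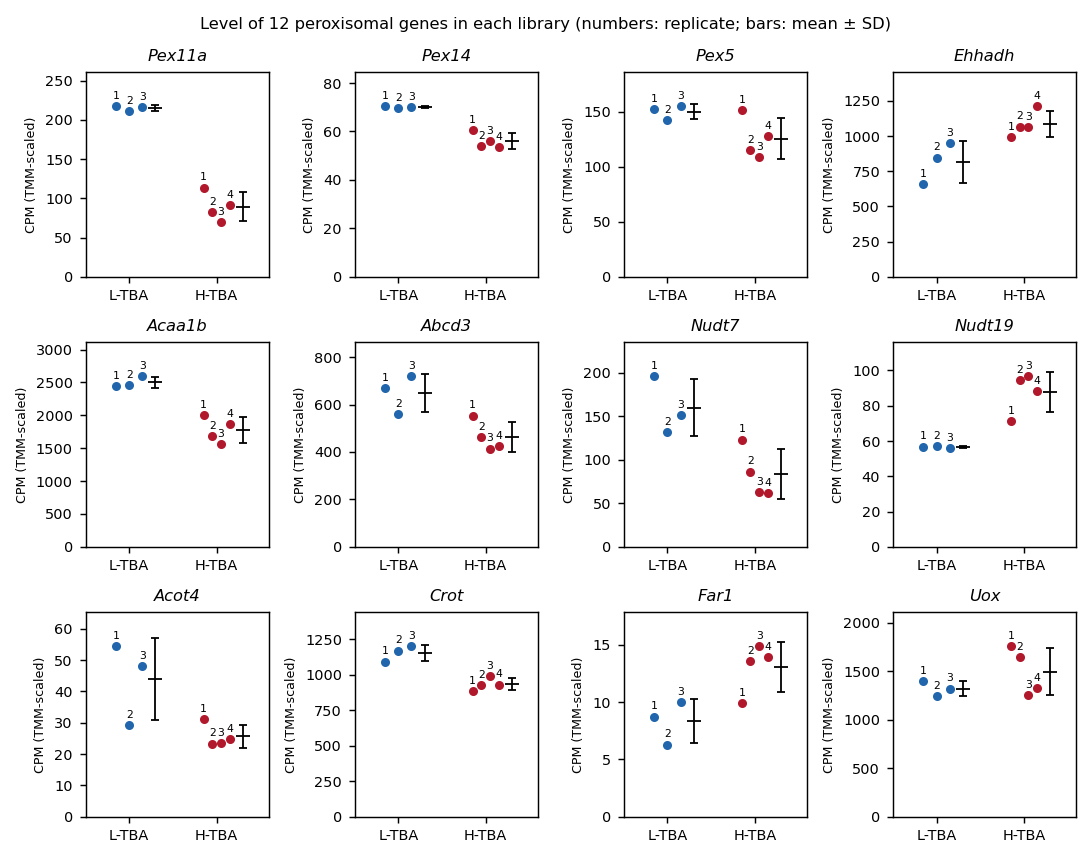
Level of 12 of the genes in each library, in TMM-scaled CPM on axes that start at 0. Points are libraries labelled with their replicate number, blue for L-TBA and red for H-TBA, and the black marks give the mean and SD. The Pex11a points of H-TBA lie between 70.0 and 114 CPM, below all L-TBA points, and the Nudt19 points lie above them.

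Of the 3 members in the core of peroxisomal beta-oxidation, 1 was called higher and 1 lower. Ehhadh carries out the hydratase and dehydrogenase steps, and the thiolases Acaa1a and Acaa1b cleave the shortened chain. Ehhadh (ENSMUSG00000022853) was at 657, 847 and 948 CPM in L-TBA and at 991, 1068, 1064 and 1213 CPM in H-TBA. All H-TBA libraries lay above all L-TBA libraries, although L-TBA 3 and H-TBA 1 were close. Ehhadh rose by 0.41 ± 0.13 on the log2 scale with an adjusted p of 0.0472. Leaving out H-TBA 2, 3 or 4 ended the call (adjusted p = 0.091, 0.0696 and 0.131), as did leaving out L-TBA 1 or 2 (adjusted p = 0.206 and 0.0949). DESeq2 size factors and the length offset gave adjusted p-values of 0.0512 and 0.0521, within 0.0100 to 0.206 over the alternatives. Hsd17b4, a non-member for the same steps and named after its values were seen, was called lower at -0.39 ± 0.12 (adjusted p = 0.0432).

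Acaa1b moved the other way from Ehhadh. Acaa1b (ENSMUSG00000010651), the member with the highest level per length at 1064 CPM per kb, was at 2449, 2458 and 2598 CPM in L-TBA and at 1998, 1679.8, 1566 and 1867 CPM in H-TBA. The groups did not overlap, and it fell by 0.49 ± 0.11 on the log2 scale (adjusted p = 0.00929). That call held when any 1 library was left out. Acaa1a was at 887, 859 and 913 CPM in L-TBA and at 797, 705, 655 and 759 CPM in H-TBA, also without overlap, and did not pass at -0.28 ± 0.10 (adjusted p = 0.0642, and 0.0236 without H-TBA 1). The ratio of Ehhadh to Acaa1b CPM was between 0.268 and 0.365 in L-TBA and between 0.496 and 0.679 in H-TBA. The thiolase genes are near copies: 30.5% of the 50-base stretches of Acaa1b transcripts occur in Acaa1a as well, so the counting could have split reads between them.

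The start regions of the thiolase genes are shown because these paralogs lie on the same chromosome and both had lower H-TBA levels. Sequences are from RefSeq (build GRCm38.p6), run from 250 bases before to 50 bases after the start, and have the CCAAT box (CCAAT on either strand) in capitals. The Acaa1a window is chr9:119341044-119341343 on the plus strand and the Acaa1b window chr9:119157044-119157343 on the minus strand.
Acaa1a: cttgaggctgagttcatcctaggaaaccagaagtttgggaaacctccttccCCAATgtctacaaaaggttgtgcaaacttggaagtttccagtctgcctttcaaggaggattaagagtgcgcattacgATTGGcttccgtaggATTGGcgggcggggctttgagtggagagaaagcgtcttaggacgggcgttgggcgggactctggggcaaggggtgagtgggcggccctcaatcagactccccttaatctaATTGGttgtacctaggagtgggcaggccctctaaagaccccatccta
Acaa1b: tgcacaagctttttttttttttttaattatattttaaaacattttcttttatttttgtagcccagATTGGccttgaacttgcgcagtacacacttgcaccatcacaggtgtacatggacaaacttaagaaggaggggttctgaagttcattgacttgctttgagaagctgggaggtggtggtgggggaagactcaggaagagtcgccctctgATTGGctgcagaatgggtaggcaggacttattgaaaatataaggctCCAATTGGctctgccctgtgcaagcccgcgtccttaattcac
Each window held 4 matches, where 37.4% of the 32851 windows of the table held at least 1. Aligned end to end, the windows were identical at 51.8% of positions, gaps counted. In Acaa1b the matches that start 8 and 11 bases after the gene's start overlap each other.

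Auxiliary enzymes prepare unsaturated fatty acids for the cycle, and 2 of 4 were called lower. Decr2, a dienoyl-CoA reductase, fell by 0.39 ± 0.10 on the log2 scale (adjusted p = 0.0176). It was at 307, 291 and 309 CPM in L-TBA and at 270.1, 224, 209 and 217 CPM in H-TBA. Ech1, a dienoyl-CoA isomerase, was at 415, 433 and 434 CPM in L-TBA and at 371, 328, 318 and 332 CPM in H-TBA. For both genes the groups did not overlap, and Ech1 fell by 0.34 ± 0.09 on the log2 scale (adjusted p = 0.0191). The Decr2 call ended without H-TBA 2 or 4 or L-TBA 1 or 3 (adjusted p = 0.0508, 0.0575, 0.0644 and 0.0575). The Ech1 call ended with library totals (adjusted p = 0.0841), without H-TBA 2 or 4 (adjusted p = 0.0552 and 0.0561) and on leaving out L-TBA 1, 2 or 3 (adjusted p = 0.0532, 0.0632 and 0.0616). The isomerase Eci2 and the reductase Pecr did not pass at -0.23 ± 0.10 and -0.36 ± 0.15 (adjusted p = 0.123 and 0.11). Without H-TBA 1 both were called lower (adjusted p = 0.0255 and 0.018).

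Of the 4 members that hydrolyse acyl-CoA or CoA, 3 were called lower and 1 higher. The thioesterases Acot5, Acot6, Acot8 and Acot12, non-members named after their values were seen, were not called (adjusted p = 0.427, 0.499, 0.147 and 0.0525). Nudt7 and Nudt19 are hydrolases that cleave CoA and its esters inside peroxisomes, and they moved in opposite directions. Nudt7 (ENSMUSG00000031767) was at 196, 132 and 151 CPM in L-TBA and at 123, 86.4, 63.0 and 61.6 CPM in H-TBA. It fell by 0.94 ± 0.22 on the log2 scale (adjusted p = 0.0104), and the call was lost without L-TBA 1 (adjusted p = 0.0508). Nudt19 (ENSMUSG00000034875) was at 56.8, 56.9 and 56.1 CPM in L-TBA and at 71.4, 94.5, 96.9 and 88.1 CPM in H-TBA. For both genes the groups did not overlap, and L-TBA libraries differed in Nudt7 far more than in Nudt19. Nudt19 rose by 0.63 ± 0.11 on the log2 scale (adjusted p = 0.00176) and was called in all 16 alternatives (adjusted p at most 0.0187). The ratio of Nudt7 to Nudt19 CPM was 3.45, 2.32 and 2.69 in L-TBA and 1.72, 0.914, 0.651 and 0.699 in H-TBA. The transcript B230322F03Rik shares 33.3% of the 50-base stretches of Nudt19, on either strand. Without knowledge of how reads were counted, its reads cannot be told apart from those of Nudt19.

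The acyl-CoA thioesterases Acot3 and Acot4, which release free long chain and dicarboxylic acids, varied widely within L-TBA. Acot4 (ENSMUSG00000052392) was at 54.5, 29.2 and 48.1 CPM in L-TBA and at 31.2, 23.4, 23.4 and 24.8 CPM in H-TBA. Acot3 (ENSMUSG00000021228) was at 28.7, 10.9 and 28.6 CPM in L-TBA and at 18.2, 6.74, 8.86 and 8.98 CPM in H-TBA. For both, L-TBA 2 fell below H-TBA 1, so the groups overlapped. Of their 50-base stretches, 21.25% in Acot3 and 13.4% in Acot4 also occur in transcripts of other genes, on either strand. The transcript 4732463B04Rik holds 7.62% of those of Acot3 and 10.4% of those of Acot4. Acot4 fell by 0.77 ± 0.18 on the log2 scale (adjusted p = 0.011), and the call was lost without L-TBA 1 (adjusted p = 0.0564). Acot3 fell by 1.09 ± 0.35 (adjusted p = 0.0447). DESeq2, library totals and the robust fit did not call Acot3 (adjusted p = 0.11, 0.0658 and 0.15). Nor did the test on leaving out H-TBA 2, 3 or 4 (adjusted p = 0.115, 0.103 and 0.118) or L-TBA 1 or 3 (adjusted p = 0.162 and 0.146), and the alternatives spanned 0.00383 to 0.162.

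The start regions of these neighbouring thioesterase genes are shown with the nuclear receptor half-site AGGTCA, searched on both strands, in capitals. The Acot3 window is chr12:84051894-84052193 and the Acot4 window chr12:84038129-84038428, both on the plus strand (RefSeq, GRCm38.p6).
Acot3: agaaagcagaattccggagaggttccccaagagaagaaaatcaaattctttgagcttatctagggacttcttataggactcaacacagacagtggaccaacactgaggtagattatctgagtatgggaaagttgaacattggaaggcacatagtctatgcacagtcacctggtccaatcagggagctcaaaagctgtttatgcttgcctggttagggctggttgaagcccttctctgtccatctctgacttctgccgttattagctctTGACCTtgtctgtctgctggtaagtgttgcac
Acot4: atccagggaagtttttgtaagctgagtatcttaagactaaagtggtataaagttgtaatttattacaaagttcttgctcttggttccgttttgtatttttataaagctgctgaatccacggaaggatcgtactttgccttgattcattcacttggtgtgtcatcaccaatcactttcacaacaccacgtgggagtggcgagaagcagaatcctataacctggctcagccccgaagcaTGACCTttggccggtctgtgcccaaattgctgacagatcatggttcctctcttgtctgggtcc
Each window held 1 half-site, as did 16.3% of all windows at least once. In Acot4 the half-site is the end of a match to DR1, the direct repeat of this half-site that PPAR-alpha binds with its partner RXR, searched on both strands with up to 2 mismatches allowed. Of the 33 members with a window, Acot4 was the 1 gene with such a match, or 3.03% against 4.40% of all genes in the table. Pex2, Pex19, Crat and Abcd2 have no window in the table. The median number of CpG dinucleotides per window was 19 for the 11 peroxins and 14 for the 22 enzymes. It was 7 for all 27025 genes with a window, whether or not they were tested here, so the sets are unlike.

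The 2 ABC transporters and the 2 carnitine transferases among the members were called lower, as were 10.7% of all tested genes. Abcd2 and Abcd3 import fatty acyl-CoA across the membrane, and Crat and Crot attach the shortened chains to carnitine for export. Abcd3 (ENSMUSG00000028127) was at 668, 561 and 720.3 CPM in L-TBA and at 553, 462, 414 and 424 CPM in H-TBA. Crot (ENSMUSG00000003623) was at 1092, 1169 and 1202 CPM in L-TBA and at 884, 927, 991 and 929.8 CPM in H-TBA. Neither gene's groups overlapped, though L-TBA 2 and H-TBA 1 lay close for Abcd3. Abcd3 fell by 0.49 ± 0.13 on the log2 scale (adjusted p = 0.0174), and Crot by 0.31 ± 0.10 (adjusted p = 0.0378). Abcd2 was at 52.4, 44.6 and 45.7 CPM in L-TBA and at 36.4, 38.9, 40.3 and 36.6 CPM in H-TBA, and fell by 0.32 ± 0.08 (adjusted p = 0.0179). Crat was at 117, 127 and 136 CPM in L-TBA and at 106, 88.4, 99.1 and 104 CPM in H-TBA, and fell by 0.35 ± 0.09 (adjusted p = 0.0162). These groups did not overlap either.

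These 4 calls were less stable than the direction, which was negative in every alternative. Abcd3 was lost without H-TBA 4 or L-TBA 1 or 3 (adjusted p = 0.0594, 0.0641 and 0.0734), and Abcd2 without H-TBA 4 or L-TBA 1 (adjusted p = 0.0511 and 0.0915). Crat was lost without L-TBA 2 or 3 (adjusted p = 0.0511 and 0.0725). Crot was lost with no filter (adjusted p = 0.0529), without H-TBA 2 or 4 (adjusted p = 0.0876 and 0.0944) and on leaving out L-TBA 1, 2 or 3 (adjusted p = 0.0732, 0.104 and 0.118). With library totals, Abcd2, Crat and Crot lost their calls (adjusted p = 0.253, 0.136 and 0.27).

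**Figure D3:**
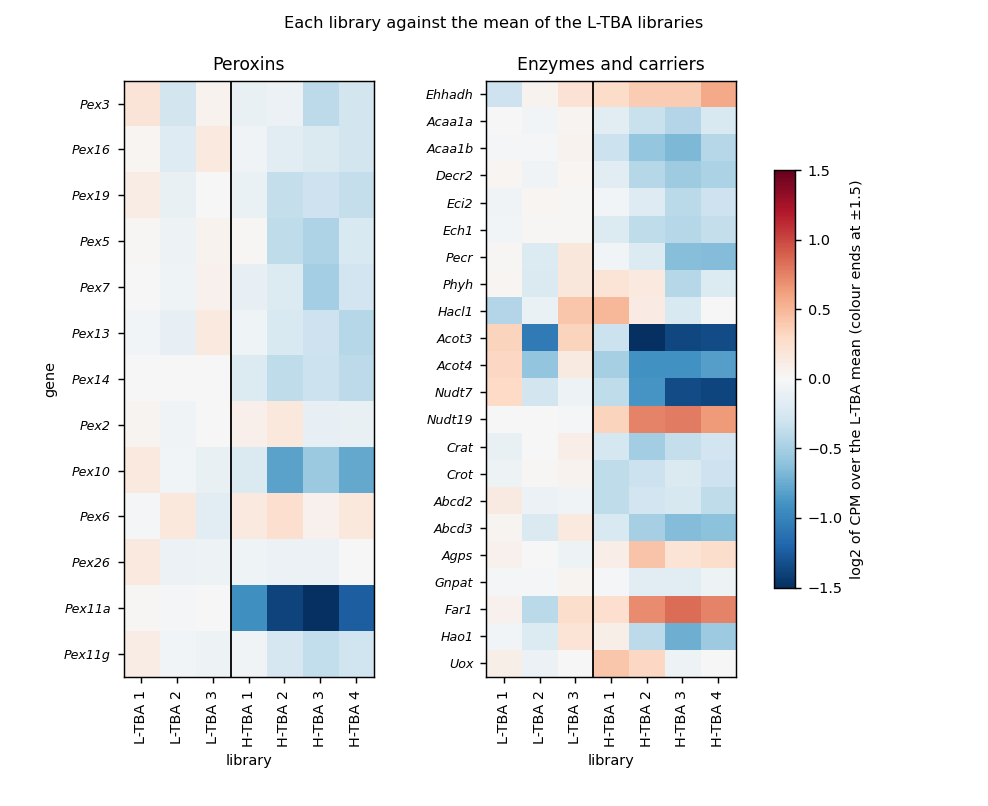
Each of the 35 tested genes in each library, as the log2 of its CPM over the mean of the L-TBA libraries; blue is lower and red higher, and the colour scale ends at ±1.5. Columns are the 3 L-TBA and 4 H-TBA libraries, split by a line. H-TBA 1 is paler than H-TBA 2 to 4 for most genes, and the medians over genes in H-TBA 1 to 4 are -0.07, -0.22, -0.33 and -0.29 for the peroxins and -0.10, -0.30, -0.42 and -0.31 for the enzymes.

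Alpha-oxidation, which removes 1 carbon from branched chains, had no called gene. Phyh, the phytanoyl-CoA hydroxylase, was at 1811, 1528 and 2005 CPM in L-TBA and at 2048, 1964, 1321 and 1539 CPM in H-TBA. Its groups overlapped widely (log2 fold change -0.05 ± 0.16, adjusted p = 0.854). Hacl1, the lyase of the next step, was at 0.13 ± 0.20 (adjusted p = 0.69). The sign of Phyh turned with library totals, without H-TBA 3 and without L-TBA 3, and that of Hacl1 without H-TBA 1 or L-TBA 1.

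Of the 3 ether lipid genes, 1 was called higher and 0 lower. Gnpat and Agps make the ether bond inside the peroxisome, and Far1 on its surface supplies the fatty alcohol. Far1 (ENSMUSG00000030759), the tested member with the lowest level per length at 1.37 CPM per kb, was at 8.72, 6.28 and 10.02 CPM in L-TBA and at 9.90, 13.6, 14.9 and 13.9 CPM in H-TBA. H-TBA 1 lay just under L-TBA 3, so the groups overlapped. Far1 rose by 0.65 ± 0.19 on the log2 scale (adjusted p = 0.0256). The Far1 call ended without H-TBA 2, 3 or 4 (adjusted p = 0.0618, 0.0661 and 0.0682) and on leaving out L-TBA 1 or 2 (adjusted p = 0.0618 and 0.0984). Agps was at 21.9, 21.1 and 19.8 CPM in L-TBA and at 22.4, 28.1, 24.1 and 25.2 CPM in H-TBA, above it throughout. It did not pass at 0.25 ± 0.10 (adjusted p = 0.0911), but did without H-TBA 1 and with library totals (adjusted p = 0.0412 and 0.026). Gnpat was at 59.8, 59.9 and 62.2 CPM in L-TBA and at 59.9, 54.5, 53.9 and 57.6 CPM in H-TBA, and did not pass at -0.10 ± 0.07 (adjusted p = 0.347); with library totals its sign turned.

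Later steps of plasmalogen synthesis lie in the endoplasmic reticulum, and of 4 such genes 2 were called lower and 0 higher. Tmem189, named after its values were seen, introduces the vinyl ether bond. It was at 24.8 ± 0.514 CPM (SD, n = 3) in L-TBA and at 13.6 ± 1.06 CPM (SD, n = 4) in H-TBA, with a log2 fold change of -0.87 ± 0.10 (adjusted p = 0.00024). Chpt1, a cholinephosphotransferase also named after its values were seen, was at -0.58 ± 0.14 (adjusted p = 0.0141).

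Neither of the 2 tested members that oxidise substrates other than lipids was called. Uox, the urate oxidase that forms the crystalline core of rodent peroxisomes, was at 1399.6, 1243 and 1322 CPM in L-TBA and at 1759.9, 1645, 1256 and 1322 CPM in H-TBA. H-TBA 1 and 2 lay above the L-TBA libraries and H-TBA 3 and 4 among them (log2 fold change 0.18 ± 0.13, adjusted p = 0.372, and 0.0372 with library totals). Hao1, the glycolate oxidase, was at 146, 129.9 and 172 CPM in L-TBA and at 159, 113, 89.6 and 103 CPM in H-TBA. It did not pass at -0.36 ± 0.17 (adjusted p = 0.15), and passed without H-TBA 1 (adjusted p = 0.00491). Hao2, a long chain hydroxy acid oxidase, had 6 counts in all of H-TBA and 21 in all of L-TBA, and Dao, the D-amino acid oxidase, had 7 and 3. Both fell under the filter. In the fit with no filter, over 23697 genes, Hao2 was at -2.18 ± 0.82 (adjusted p = 0.0794) and Dao at 0.69 ± 1.003 (adjusted p = 0.693), and neither was called. Xdh, a purine oxidase outside the members and named after its values were seen, was called lower at -0.43 ± 0.11 (adjusted p = 0.0162).

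**Figure D4:**
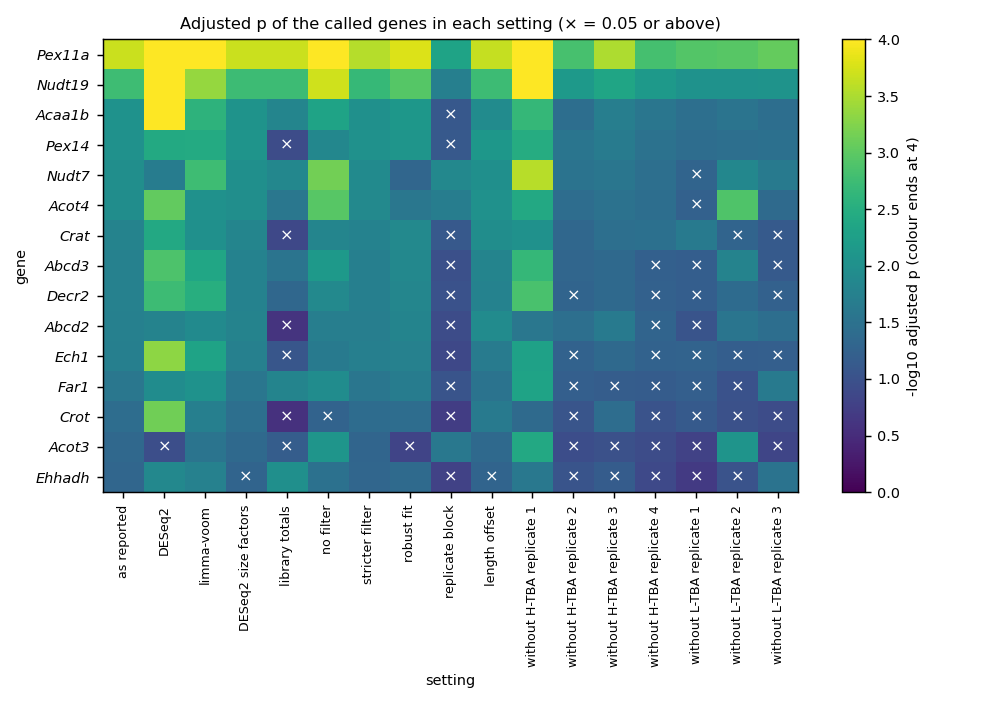
Adjusted p of the 15 called genes as reported and in each of the 16 alternatives, as the negative log10 on a colour scale that ends at 4. A cross marks an adjusted p of 0.05 or above. Pex11a and Nudt19 have no cross, and Pex14 and Acaa1b have none among the 7 settings that leave out a library.

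Other genes listed as peroxisomal, outside the members and in part shared with mitochondria, had a like share of lower calls. Of 48 tested genes from a list of 52, 15 were called lower (31.3%) and 3 higher (6.25%), with a median log2 fold change of -0.26. The shares over all tested genes were 10.7% and 13.1%. Acnat2, an acyltransferase that conjugates fatty acids to amino acids, and Nudt12, an NADH hydrolase, fell by 1.05 ± 0.21 and 0.40 ± 0.09 (adjusted p = 0.00417 and 0.00778). Nudt12 lost its call with library totals (adjusted p = 0.0543).

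Cat, the catalase that removes the peroxide made by peroxisomal oxidases, passed at -0.45 ± 0.15 (adjusted p = 0.045, and 0.0664 with library totals). Its call was lost without any 1 library except H-TBA 1: for H-TBA 2 to 4 the adjusted p was 0.0786, 0.0851 and 0.115, and for L-TBA 1 to 3 it was 0.0983, 0.0509 and 0.166. The 3 genes called higher were Agxt, the transaminase that detoxifies glyoxylate, at 0.60 ± 0.09 (adjusted p = 0.00127), Trim37, a ubiquitin ligase, at 0.33 ± 0.09 (adjusted p = 0.0229), and Pex5l, a relative of Pex5, at 2.01 ± 0.53 (adjusted p = 0.0177). Pex5l was scarce, at 0.336 ± 0.221 CPM in L-TBA and 1.41 ± 0.513 CPM in H-TBA. Trim37 and Pex5l were named after their values were seen.

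Fatty acid oxidation in mitochondria uses related enzymes. Of 12 tested mitochondrial counterparts 9 were called lower (75.0%) and 0 higher, with a median log2 fold change of -0.35. Among all tested genes 10.7% were called lower and 13.1% higher. Acot2, a thioesterase of the same family as Acot3 and Acot4, fell by 0.57 ± 0.09 (adjusted p = 0.000972), from 57.2 ± 2.65 to 38.5 ± 3.14 CPM. Decr1, the counterpart of Decr2, fell by 0.49 ± 0.10 (adjusted p = 0.00421), and Eci1, that of Eci2, fell by 0.41 ± 0.10 (adjusted p = 0.0127, and 0.0599 without L-TBA 3). The carnitine carrier Slc25a20 fell by 0.44 ± 0.11 (adjusted p = 0.015, and 0.0721 without L-TBA 1). Hadha, the counterpart of Ehhadh for the same reactions, was at -0.35 ± 0.09 where Ehhadh was at 0.41; it was named after its values were seen.

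**Figure D5:**
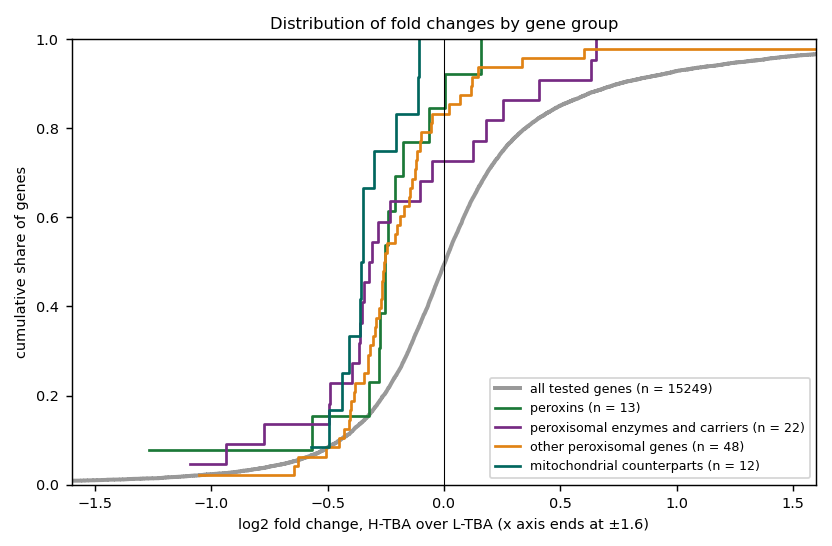
Cumulative share of genes by log2 fold change, H-TBA over L-TBA, for all 15249 tested genes and for 4 gene groups. The median is -0.25 for the 13 peroxins, -0.32 for the 22 enzymes, -0.26 for the 48 other peroxisomal genes and -0.35 for the 12 mitochondrial counterparts, all left of the 0.00 of all tested genes.

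The receptor for peroxisome proliferators was itself lower. Ppara was at 126, 109 and 116 CPM in L-TBA and at 70.6, 44.7, 41.6 and 62.6 CPM in H-TBA, with no overlap. It fell by 1.09 ± 0.16 on the log2 scale (adjusted p = 0.00094) and was called in all 16 alternatives. In the list of Ppara, its cofactors and inducible targets outside the peroxisome, 9 of 18 tested genes were called lower and 0 higher. Vnn1, a pantetheinase, Mgll, a monoglyceride lipase, Fabp1, the liver fatty acid carrier, and the hormone gene Fgf21 were at -1.23, -1.05, -1.13 and -0.92. The omega-hydroxylase genes Cyp4a10 and Cyp4a14, classic targets named after their values were seen, did not pass at -0.18 ± 0.23 and 0.20 ± 0.22 (adjusted p = 0.609 and 0.552).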

How the data were processed

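For the 7 libraries the authors deposited a table of counts by Ensembl identifier, in whole numbers that were not normalized. Build mm9 and the tools TopHat2 2.0.11, CASAVA and DESeq2 1.18.1 are listed, per the submitters' processing notes, without a role. Which tool counted reads, with which strand setting and annotation, is not given in the sources used here. Symbols came from a GENCODE M21 table (32897 of 37620 identifiers matched). Genes were filtered with filterByExpr (minimum count 10, minimum total 15), scaled by TMM and tested in R 4.3.3 by the quasi-likelihood method of edgeR 4.0.16; the model held the group alone, and p-values were adjusted by Benjamini-Hochberg over all 15249 genes. Per-length levels use exon lengths from GENCODE M21. Standard errors come from the fold change and the F statistic.

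The members and lists were chosen with earlier results of these data known. Members past the threshold and 12 fixed members, some of them also past it, were named in full. Non-members named by rule were Ppara, Cat, some genes that are not reported here, and up to 4 genes with the smallest adjusted p from each of 3 lists. Of 6 adipocyte markers Lep was at 0 and 2 were tested, and of 6 kidney tubule markers 3 were at 0 and 0 were tested. Among 6 macrophage markers 2 were called lower and 0 higher (160 to 200 CPM in H-TBA, 206 to 359 CPM in L-TBA). Here too H-TBA 1 had the H-TBA sum farthest from L-TBA. Among 6 stellate cell and fibroblast markers 1 was called higher and 1 lower.

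On simulated counts with 200 changed genes, the comparison of 4 with 3 libraries, on 15055 genes, found 83.5% of genes changed 2-fold. Unchanged genes made up 4.30% of these calls. In the data 3638 genes were called, and the median log2 fold change of the members was -0.28. The simulated shares therefore do not describe recovery or error for differences of that size. Alternatives used DESeq2 1.42.0, limma 3.58.1 (voom with quality weights), other scalings and filters, a robust fit, a replicate block, a gene length offset (96.3% of tested genes had a length) and leaving out each library. Any pair of libraries within a group differed by more than sampling noise (chi-square over its degrees of freedom at least 5.64). Plots were made in matplotlib 3.10.9.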

Additional observations from a re-analysis of the deposited data

Results flagged for a closer look

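Pex19, which carries membrane proteins to the peroxisome, was at 149.7 CPM in H-TBA 1, while the other H-TBA libraries lay between 125 and 129 CPM. The gap to the nearest library was 0.841 of the group's range, past Dixon's critical value for 4 samples. It was the 1 such case among the 37 genes, and chance alone flags about 1 in 20 groups.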

How the results depend on the processing

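No called gene changed sign in any of the 16 alternatives; 5 genes without a call did in at least 1 (Pex2, Pex26, Phyh, Hacl1 and Gnpat). Of the 15 calls, 2 held in all 16 alternatives and 4 held without any 1 library. With library totals, 3117 of all genes were higher and 832 lower; 6 members were higher and 6 lower, with 1 and 1 among the peroxins, 5 and 5 among the enzymes, and 6 and 6 among the other peroxisomal genes. The peroxins' median was then -0.10, beside 0.16 for all genes. Of the 12 members called with library totals, 9 were also called with TMM. Limma-voom called 22 members and 8 peroxins lower; 4 peroxins were lower with DESeq2 size factors and with the robust fit, and 5 with the length offset. Leaving out 1 library gave 1470 to 2429 higher and 1035 to 2123 lower genes, 1 to 4 and 4 to 22 among the members, 0 higher and 2 to 8 lower peroxins, 1 to 4 and 2 to 14 among the enzymes, and 1 to 3 and 7 to 24 among the other peroxisomal genes. The peroxins' median ran from -0.32 to -0.20 and that of the enzymes from -0.32 to -0.27.

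The replicate numbers of the titles did not pair the libraries: same-numbered libraries correlated at -0.10, -0.06 and -0.06 in their deviations from the group means. With the replicate number as a block, 1166 genes were higher and 754 lower. Then 1 member was higher and 4 lower (1 peroxin lower, 1 enzyme higher and 3 lower), and 1 of the other peroxisomal genes was higher and 5 lower. Outside the members, Cat, Decr1 and Eci1 also lost their calls with the block (adjusted p = 0.203, 0.0526 and 0.106). Hao2 and Dao were the members whose counts were too low for the filter.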
